A study of Mus musculus with 12 samples.

Results

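Oxidised low-density lipoprotein (oxLDL) was compared with no treatment in BMDMs, macrophages grown from mouse bone marrow, with unrecombined Baf60a alleles on an ApoE-null background. The comparison used 4 of the 12 libraries of the study, chosen by title: 2 labelled WT and 2 labelled oxLDL_WT of the ApoE KO cohort. ATAC-seq marks open chromatin by letting a transposase insert sequencing adapters where DNA is accessible, and each library was represented by its deposited list of peaks. All 4 libraries came from bone marrow with the genotype Baf60a f/f, Lyz2 Cre- and ApoE KO. The "WT" cells were thus floxed at Baf60a, which encodes a SWI/SNF subunit under the gene symbol Smarcd1, without the myeloid Lyz2 Cre that deletes it, and both groups lacked ApoE. The treated group received oxLDL at 50 µg/ml for 48 h and the other group received none. Age, sex and the number of animals are not stated in the labels, and nothing in them says that the 2 replicates of a group came from separate animals or cultures. The p-values below therefore measure the spread between these libraries, which may be technical.

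Macrophages take up oxLDL through scavenger receptors such as CD36 and MSR1, break down its lipids in lysosomes and store or export the cholesterol, which is how foam cells form in atherosclerotic plaques. Oxysterols activate the nuclear receptor LXR and with it the exporters Abca1 and Abcg1, cellular cholesterol restrains SREBP and its sterol synthesis genes, and oxidised lipids activate the antioxidant factor NRF2. The regulatory DNA of macrophages is held open by PU.1 together with AP-1, C/EBP and NF-kB factors, and SWI/SNF complexes move nucleosomes there. ApoE is itself a carrier of exported cholesterol, so the cells compared here lacked one acceptor route in both groups.

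4 promoters show the kind of region the comparison turned on. C1qb (a chain of complement C1q) and Gtpbp3 (an enzyme that modifies mitochondrial transfer RNA) were the genes among the strongest downward rank differences whose region covered the RefSeq promoter window. Acpp (an acid phosphatase) was an upward one whose region covered the window in part, and Tnf (the inflammatory cytokine) was the panel gene with an unadjusted p under 0.05 whose region lay over its RefSeq start. Acpp and Tnf were picked for display after their values were seen. Each sequence is the 250 bases before the RefSeq start (GRCm38.p6, the assembly of mm10), written 5′ to 3′ along the gene, and capitals mark matches to the motifs named below.
C1qb (chr4:136886201-136886450, minus strand): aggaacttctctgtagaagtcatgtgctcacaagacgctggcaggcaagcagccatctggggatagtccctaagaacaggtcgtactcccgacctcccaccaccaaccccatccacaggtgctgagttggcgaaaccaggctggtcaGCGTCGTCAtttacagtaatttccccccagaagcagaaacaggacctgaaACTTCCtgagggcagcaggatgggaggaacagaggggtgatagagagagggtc
Gtpbp3 (chr8:71488478-71488727, plus strand): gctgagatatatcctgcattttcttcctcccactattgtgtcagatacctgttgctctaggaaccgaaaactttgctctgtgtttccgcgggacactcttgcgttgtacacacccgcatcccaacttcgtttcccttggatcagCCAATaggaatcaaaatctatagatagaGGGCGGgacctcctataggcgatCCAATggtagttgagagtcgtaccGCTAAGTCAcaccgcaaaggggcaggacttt
Tnf (chr17:35202008-35202257, minus strand): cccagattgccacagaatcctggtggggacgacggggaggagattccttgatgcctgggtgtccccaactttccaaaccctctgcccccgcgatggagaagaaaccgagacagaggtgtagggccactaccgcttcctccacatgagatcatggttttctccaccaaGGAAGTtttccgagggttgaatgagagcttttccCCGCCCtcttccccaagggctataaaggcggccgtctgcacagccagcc
Acpp (chr9:104337723-104337972, minus strand): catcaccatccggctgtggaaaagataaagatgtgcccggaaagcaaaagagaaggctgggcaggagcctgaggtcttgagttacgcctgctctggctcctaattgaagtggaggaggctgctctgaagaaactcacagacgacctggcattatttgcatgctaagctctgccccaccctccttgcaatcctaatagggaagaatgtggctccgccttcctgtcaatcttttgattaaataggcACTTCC

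In these windows C1qb held 1 match to an antioxidant response element (TGACNNNGC, on the reverse strand) 103 bases before its start and 1 to the ETS/PU.1 core (GGAAGT) 53 bases before it. Gtpbp3 held 2 CCAAT boxes, 1 GC box (GGGCGG) and 1 antioxidant response element. The Tnf window held 1 ETS/PU.1 core 83 bases before the start and 1 GC box, and Acpp held 1 ETS/PU.1 core 6 bases before its start. No 2 of these matches overlapped. Of 20085 RefSeq promoter windows of the same length, 20.5% held the ETS/PU.1 core, 10.6% the antioxidant response element, 35.3% a CCAAT box and 43.4% a GC box, on either strand. A match is a run of letters and was not read as a bound site.

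The 4 lists together gave 45213 merged regions on the 19 autosomes. Untreated lists held 29064 and 39303 peaks, and oxLDL lists held 27571 and 24397. Depth is unknown, since the lists hold no reads. All 8 macrophage marker genes (Csf1r, Adgre1, Cd68, Mertk, Fcgr1, Lyz2, Spi1 and Cd14) had a peak at most 1 kb from an end of the gene in both untreated libraries, against 6 and 7 of 8 in the oxLDL libraries. Csf1r and Fcgr1 were the 2 not called in every library. Markers of B cells (0 of 5), mast cells and basophils (0 of 4) and erythroid cells (0 of the 3 on autosomes) had none in any library, and the other lists (neutrophil, T and NK cell, dendritic cell, fibroblast) had between 0 and 2 of 4 to 6 genes. The region over the start of Smarcd1 was called in all 4 libraries, at percentiles 0.613 and 17.6 untreated and 1.91 and 16.7 with oxLDL. Apoe had a weak region at its boundary in all 4 libraries, at percentiles 0.199, 0.215, 0.204 and 0.864. The deleted part of Apoe is not given in the labels, so this peak does not check the genotype. The 2 untreated file names carry the mark L001 and the 2 oxLDL file names carry L003. Whatever the mark stands for, it and the treatment cannot be told apart within these 4 libraries.

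The first comparison asked whether oxLDL changed how much chromatin was called open and where it lay. Fewer peaks were called with oxLDL, 25984 ± 2240 against 34184 ± 7240 (SD, n = 2 libraries each), a ratio of 0.76, and the groups did not overlap. The exact permutation test over the 4 libraries, two-sided, gave p = 0.333, which is the smallest p that 2 against 2 can give, so no comparison of library values can pass 0.05. Covered sequence was 13.4 and 18.1 Mb untreated and 13.1 and 11.3 Mb with oxLDL (exact p = 0.333). Untreated replicate 2 had the most peaks. Without it the log2 ratio of peak numbers was -0.16 instead of -0.38, and that of covered sequence was -0.13 instead of -0.35.

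**Figure D1:**
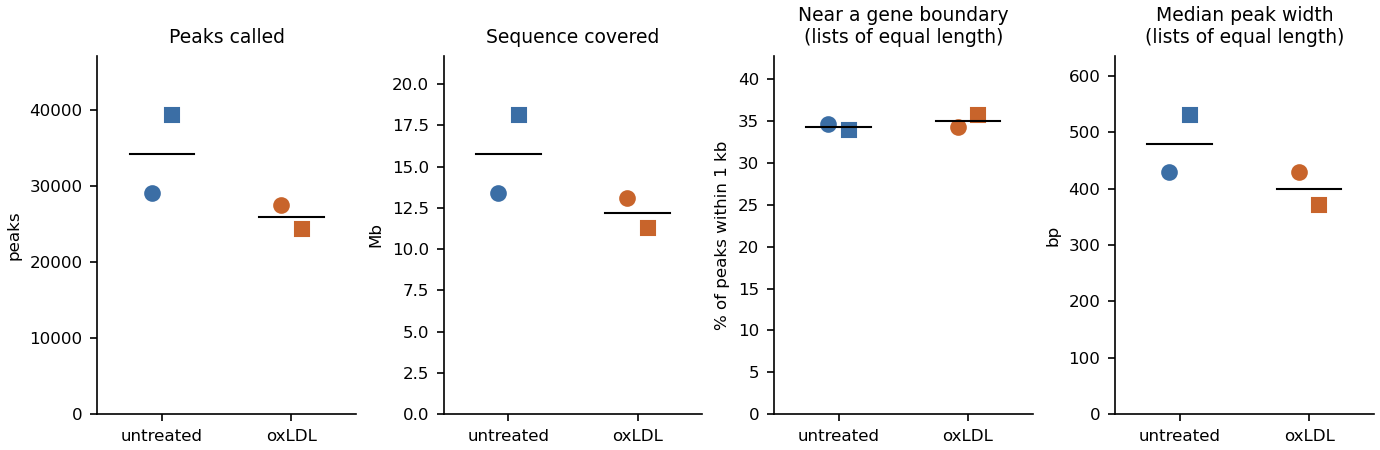
Values of the 2 untreated (blue) and 2 oxLDL (orange) libraries, with circles for replicate 1, squares for replicate 2 and lines for group means; axes are peaks called, Mb covered, percent of peaks within 1 kb of a gene boundary and median width in bp, the last pair in lists cut to 24397 peaks. Untreated replicate 2 stands highest in peak number, covered sequence and width, and the shares near gene boundaries lie between 33.955 and 35.6642%.

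Peak location was compared in lists of equal length, the 24397 peaks with the highest deposited -log10 p in each library. A gene boundary here is either end of a protein-coding gene in the RefSeq table. In the untreated libraries 34.6026% and 33.955% of summits lay within 1 kb of one, against 34.246% and 35.6642% with oxLDL. The groups overlapped, and the mean difference of 0.676 percentage points was smaller than the SD of 1 point between the oxLDL replicates (exact permutation p = 0.667). Summits inside genes made up 55.1% and 54.5% untreated and 56.4% and 57.2% with oxLDL, which did not overlap (exact p = 0.333). Peak width was 430 and 530 bp at the median untreated and 429 and 371 bp with oxLDL, so only untreated replicate 2 was much wider. In the full lists the direction turned, with medians of 364 and 357 bp untreated and 382 and 371 bp with oxLDL. The full lists also gave a boundary share 5.04 points higher with oxLDL.

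Peak strength in the deposited columns went in opposite directions. The median fold enrichment of a list was 3.58 and 3.63 untreated and 3.84 and 3.77 with oxLDL, while the median score, which the peak caller derives from the q-value, was 85 and 107 untreated and 80 and 76 with oxLDL. Both values are the authors' own for each peak and depend on the library. They were used from here on only as ranks within a list.

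Regions present in one condition and missing in the other mostly ranked low in their own lists. Of the 45213 regions, 2774 (6.14%) were called in both untreated and neither oxLDL library, and 171 (0.378%) in both oxLDL and neither untreated library. In lists of equal length (33154 regions) the numbers were 1068 (3.22%) and 688 (2.08%). Regions called in all 4 libraries numbered 18340 (40.6%) and are called shared below. The untreated-only regions sat at median percentiles of 23.1 and 33.5 of their own lists and the oxLDL-only regions at 24.2 and 19. Their median widths were 295 and 290 bp, against 742 bp for shared and 372 bp for all regions. Within 1 kb of a gene boundary lay 12.1% and 14%, against 41% of shared and 24.2% of all regions. Only 161 of the 2774 and 6 of the 171 ranked above the 50th percentile in both libraries that called them.

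The same regions were looked up in other libraries of the study. The Omni-ATAC cohort of the same study holds 1 untreated and 1 oxLDL library of WT BMDMs, with longer lists and no ApoE status in the labels. Both of its libraries called 2632 (94.9%) of the untreated-only regions and 154 (90.1%) of the oxLDL-only regions, against 89.7% of all 45213. In the Baf60a KO libraries of the ApoE KO cohort, all 4 (2 untreated, 2 oxLDL) called 27.1% and 37.4% of them, below the 52.3% of all regions.

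The 10 strongest untreated-only regions included one inside Skil (a co-repressor of TGF-beta signalling; chr3:31109218-31109515) at percentiles 66.1 and 84.6, one inside Evi2b (a membrane protein of blood cells; chr11:79519933-79520310) at 65.8 and 82.1, and one inside Rasgrf2 (an exchange factor for Ras; chr13:91908307-91908504) at 72.9 and 70.7. All 3 were also called in both Omni-ATAC libraries. The other 7 were nearest to 4932438H23Rik, Xxylt1 (166 kb away), Asap2, Otor, Prcp, Mzt1 (405 kb away) and Gm21149. The 10 strongest oxLDL-only regions included one 35.5 kb from Tmem100 (chr11:90071841-90072104) at percentiles 65.3 and 88.8, one inside Larp4b (an RNA-binding protein; chr13:9139990-9140539) at 61.8 and 66.8, and one inside Ppp3ca (the calcineurin catalytic subunit; chr3:136896310-136896598) at 70 and 46.3. The others were nearest to D3Ertd751e, Gm38510, Thsd7a, Tm4sf1, Mepe, Spin1 and Dlg2. Of each 10, 9 were called in both Omni-ATAC libraries.

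The main comparison asked which of the 18340 shared regions gained or lost rank with oxLDL. No region passed. Each region took the highest fold enrichment of its peaks in a library. These were ranked within the library and turned into normal scores. Then limma was fitted across all shared regions with Benjamini-Hochberg adjustment. The SE and p of a region are moderated by limma. They draw on the spread over all shared regions (7.861 prior degrees of freedom) beside the region's own (2 residual degrees of freedom). At an adjusted p under 0.05, 0 regions were higher and 0 were lower (0% each), and the smallest adjusted p was 0.625. At an unadjusted p under 0.05, 675 (3.68%) were higher and 606 (3.3%) were lower, 1281 (6.98%) in all. The sets whose 2 oxLDL ranks did not overlap the 2 untreated ranks held 3413 higher (18.6%) and 3319 lower (18.1%) regions. With the file-name mark as a term in a fit on 8 libraries, 0 of 17573 regions passed. At an unadjusted p under 0.05, 369 were higher and 387 lower. The term could be estimated only because the 2 oxLDL KO libraries carry different marks, so it rests on those 2 libraries. A difference in rank is relative to the other shared regions and cannot show a shift common to all of them.

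Single libraries of different treatments lay slightly farther apart in rank than replicates did by the median gap, and not by every measure. The median gap in percentile at a shared region was 9.23 points between the untreated replicates and 9.65 between the oxLDL replicates, and 9.69 to 10.3 points in the 4 untreated-oxLDL pairs. A gap of more than 20 points occurred at 3614 regions between the untreated replicates and 4343 between the oxLDL replicates, and at 4150 to 4514 in the 4 pairs. The range of the pairs thus included the oxLDL replicates by this count. Ranks of the untreated replicates had a Spearman correlation of 0.85 over the shared regions and those of the oxLDL replicates 0.816, while the 4 untreated-oxLDL pairs lay between 0.813 and 0.823. The oxLDL replicates thus resembled each other about as much as they resembled untreated cells.

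**Figure D2:**
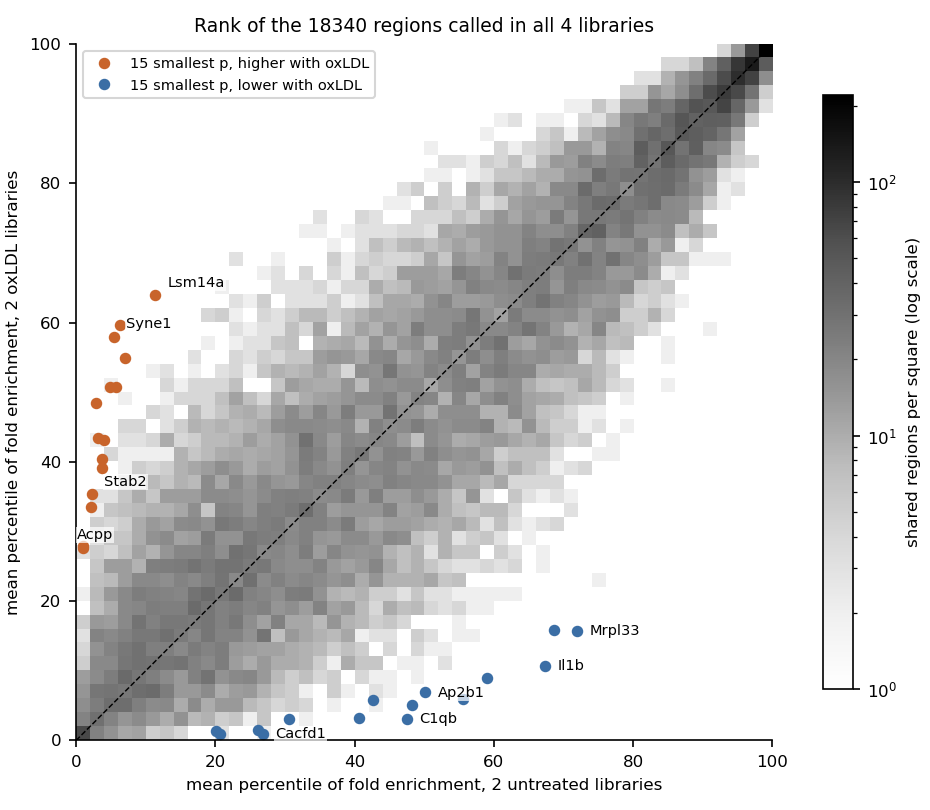
Mean percentile of fold enrichment in the 2 oxLDL libraries (y) against the 2 untreated libraries (x) for the 18340 shared regions, shaded by regions per square on a log scale, with the 15 regions of smallest p in each direction in colour and the dashed line at equal rank. Most regions lie along the line, and the named regions, chosen by p, lie at its outer edges with no adjusted p under 0.625.

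The 15 regions with the smallest p in each direction are described here without a claim that they differ. All 30 had an adjusted p of 0.625 in limma and, since they were chosen by this contrast, non-overlapping ranks. The upward 15 began at percentiles of 0.455 to 11.8 in untreated cells and reached 19.4 to 68 with oxLDL, so all were among the weakest shared peaks at the start. The downward 15 began at 18.4 to 79.7 and ended at 0.739 to 26.1. Values below are in the order untreated replicates 1 and 2, then oxLDL replicates 1 and 2.

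Among the upward regions, the smallest p belonged to one inside Syne1 (nesprin-1, which ties the nuclear envelope to actin; chr10:5067238-5067459), at percentiles 6.03 and 4.82, then 59.9 and 56.1. Both oxLDL libraries were far above both untreated libraries there, with a normal score difference of 1.81 ± 0.321 (SE). A region inside Stab2 (stabilin-2, a scavenger receptor that binds hyaluronan and modified LDL; chr10:86886484-86886744) stood at 1.32 and 3.23, then 31.1 and 39.7. Its deposited fold enrichment was 2.49 and 2.93, then 3.87 in both oxLDL libraries. The Acpp region over the start shown above (chr9:104337578-104337862) stood at 0.603 and 1.41, then 30.1 and 25.2, low in every library but least so with oxLDL. A region 36.6 kb from Ccne1 (cyclin E1, which drives entry into S phase; chr7:38061083-38061601) stood at 4.49 and 1.78, then 52.1 and 35. Others lay inside Akap7 (a scaffold for protein kinase A), Ptprn2 (a phosphatase-like protein of secretory granules) and Prr5l (a partner of mTORC2). Adamts1 (a secreted metalloproteinase) and Lsm14a (a processing-body protein) also held one each. Those of Rpp21 (a ribonuclease P subunit) and Zmym1 lay at the gene boundary. The rest were nearest to Bmper (146 kb away), Gm5174, Gm9376 (104 kb away) and Nup153 (a nuclear pore protein). Of the 15, 10 counted as inside genes. These 10 included Acpp, Rpp21 and Zmym1, the 3 regions at most 1 kb from a boundary. The 18340 shared regions had 62.5% inside genes and 41% that close to a boundary, again as overlapping counts.

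Among the downward regions, one 26.1 kb from Il1b (interleukin-1 beta) and 28459 bp from the RefSeq start of Il1a (chr2:129338154-129338708) stood at 65.5 and 69.4, then 3.72 and 17.7. This was the largest downward difference of the 15, at -1.81 ± 0.374 (SE) in normal score, and its deposited fold enrichment was 4.99 and 6.64, then 2.81 and 3.23. The region over the C1qb promoter shown above (chr4:136885910-136886580) stood at 33.5 and 61.4, then 3.3 and 2.89. C1q is made by macrophages and starts the classical complement pathway. A region 6.57 kb from H2-Oa (a chain of the protein that modulates peptide loading on MHC class II; chr17:34101396-34102217) stood at 51.4 and 44.9, then 7.21 and 3.04. A region inside Rhbdf2 (iRhom2, needed by the protease that sheds TNF; chr11:116615662-116617012) stood at 23 and 18.4, then 1.2 and 0.739. In all 4, both oxLDL ranks lay below both untreated ranks.

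Another downward region, within 1 kb of the start of Ap2b1 (the beta subunit of the clathrin adaptor AP-2; chr11:83302448-83303171), stood at 48.4 and 51.9, then 7.51 and 6.32. One 11.9 kb from Rab7 (the GTPase of late endosomes; chr6:88056920-88057499) stood at 28.2 and 53.2, then 1.15 and 5.41. The Gtpbp3 promoter region shown above (chr8:71487747-71489092) stood at 22.6 and 29.9, then 2.2 and 0.902, and one 11.4 kb from Mrpl33 (a protein of the mitochondrial ribosome; chr5:31602263-31602825) stood at 71 and 73, then 26.1 and 5.4. The rest were at or nearest to Cacfd1, F830045P16Rik, Gadd45g (97.9 kb away), Chrna9, Ttll1, Clhc1 and Cngb1.

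**Figure D3:**
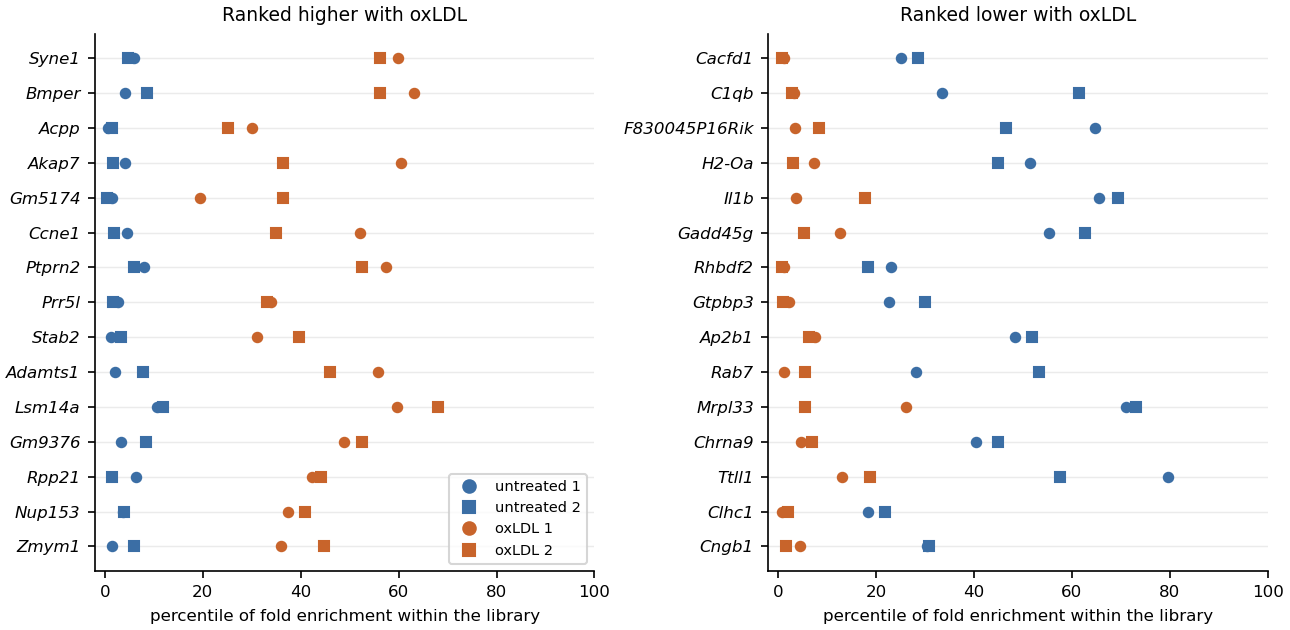
Percentile of fold enrichment within each library (x) for the 15 regions of smallest p in each direction, labelled by nearest gene, with untreated libraries in blue, oxLDL in orange, circles for replicate 1 and squares for replicate 2. Upward regions sit at 0.455 to 11.8 in untreated cells and downward regions end at 0.739 to 26.1 with oxLDL; groups do not overlap because the regions were chosen by this contrast.

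The same measure in libraries that the comparison did not use matched in sign for part of the regions. In the Baf60a KO cells of the cohort, 11 of the 14 upward regions with a value and 10 of the 14 downward ones had the same sign for oxLDL against untreated. In the Omni-ATAC WT pair, 6 of 15 and 9 of 15 did. Over all regions with an unadjusted p under 0.05, the share with the same sign was 61.5% (378 of 615) upward and 54.4% (295 of 542) downward in KO cells, against 50.1% and 49.9% of all regions. In the Omni-ATAC pair it was 40.6% (269 of 663) and 44.5% (269 of 604), against 54.3% and 45.7% of all regions. Across regions, the oxLDL difference in these WT cells had a Spearman correlation of 0.0679 with that in KO cells (17573 regions) and -0.0646 with that in the Omni-ATAC pair (18181 regions). These are descriptions over regions that share libraries.

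Whether the oxLDL difference depended on Baf60a was tested as an interaction over the 8 libraries of the cohort. Both untreated KO libraries carry the mark L003, and the oxLDL KO libraries carry L001 and L003. The mark thus goes with treatment in a different way in WT and KO cells, and this fit does not separate it from the interaction. Of 17573 regions called in all 8, 0 passed at an adjusted p under 0.05, with a smallest adjusted p of 0.411, and 1226 (6.98%) had an unadjusted p under 0.05. In the fit on 8 libraries the difference for Il1b was -1.87 in WT and 0.33 in KO cells. For C1qb it was -1.85 and -0.54, and for Syne1 1.88 and 0.24. Since the WT values were chosen for their size, values nearer 0 in KO cells carry no information on the genotype. For oxLDL against untreated KO cells in the same fit on 8 libraries, 1 region was higher at an adjusted p under 0.05 (0.00569%) and 0 were lower.

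A panel of 28 genes of lipid handling, stress and inflammation was read whatever its values. It was chosen with earlier results of these data known. Of these, 24 had at least 1 shared region within 50 kb, 63 regions in all, and 0 passed. At an unadjusted p under 0.05, 7 of the 63 (11.1%) were counted against 6.98% of all shared regions, and all 7 ranked lower with oxLDL. They belonged to Msr1, Hmox1, Cxcl1, Il1b, Tnf, Atf3 and Mitf. By sign, 24 of the 63 were above 0 and 39 below. Because of how the panel was chosen, these counts are no test of it as a group.

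Uptake receptors and exporters were mixed. Cd36, the class B scavenger receptor, had 6 shared regions with differences between -0.71 and 0.13. The region at a RefSeq start (chr5:17835619-17836369) stood at percentiles 53.6 and 58.9, then 52.9 and 36.4. Msr1, scavenger receptor A, had 3, of which one inside the gene (chr8:39619485-39620662) stood at 55.5 and 44, then 23.7 and 22.3 (-0.73 ± 0.326 SE, adjusted p = 0.711), while the one at its boundary stood at 31.2 and 36.4, then 40 and 44.8. Abca1, the LXR target that loads cholesterol onto apolipoprotein A-I, had 6 between -0.3 and 0.56. The region over its start (chr4:53159520-53160318) stood at 65.9 and 72.4, then 69.1 and 69.8, all close together. Abcg1, which exports cholesterol to HDL, had 1 region, at 44.9 and 45.2, then 45.2 and 16.5. Plin2, which coats lipid droplets, had a region at its start at 71.3 and 51.6, then 43.2 and 63.9, and the groups overlapped. Angptl4, a PPAR target that inhibits lipoprotein lipase, had 1 region with a difference of -0.61. Fabp4 and Pdk4, both PPAR targets, had no region in any of the 4 libraries, and Nqo1 and Nos2 had none that all 4 called.

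NRF2 target genes held values of both signs. Hmox1, heme oxygenase 1, had 4 shared regions. One within 1 kb of its boundary (chr8:75093487-75093953) stood at 79.6 and 78.1, then 21.4 and 54.1 (-1.15 ± 0.378 SE, adjusted p = 0.646), so both oxLDL libraries were lower but far apart. The 3 others, 3.92 to 9.71 kb from the gene, had differences of -0.32 to 0, and their groups overlapped. Gclm, a subunit of the enzyme that limits glutathione synthesis, stood at 91.5 and 95.9, then 93 and 94.9. Slc7a11, the cystine importer, had 3 regions, all above 0 (0.07 to 0.49), and Srxn1, sulfiredoxin, had a difference of 0.33.

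The inflammatory genes of the panel, Tnf, Il1b, Cxcl1 and Ccl2, had regions of both signs. The Tnf region over the promoter shown above (chr17:35201323-35202347) stood at 39.4 and 38.2, then 14.4 and 7.6 (-0.96 ± 0.33 SE, adjusted p = 0.649), with both oxLDL ranks below both untreated ranks. The second Il1b region, 2.33 kb from the gene (chr2:129373250-129373730), stood at 53.9 and 75.3, then 45.4 and 29.7. Cxcl1, a neutrophil chemokine, had 3 shared regions, and they went both ways. One stood at 95.4 and 87.8, then 39.4 and 79, and another had a difference of -0.66. The third stood at 54.1 and 47.7, then 77 and 72.3. It lay 5.07 kb from Cxcl1, and its nearest RefSeq start was that of Cxcl2, 5713 bp away. The monocyte chemokine Ccl2 had 5 regions, all above 0 (0.05 to 0.88), and its boundary region stood at 88.1 and 79.9, then 89.5 and 80.4.

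Transcription factor and foam cell genes were read in the same way. Fos had 5 regions between -0.68 and 0.02, and the single Jun region had 0.33. Atf3, a stress-induced repressor, had 6 between -1.09 and 0.11, and Mitf, a regulator of lysosomal genes, had 4 between -1.05 and -0.05. The lowest region of each was among the 7 with an unadjusted p under 0.05 (adjusted p = 0.675 and 0.646 in limma). Gpnmb and Trem2, markers of lipid-laden macrophages, had differences of -0.57 and -0.12. Lyz2, lysozyme, had a region at 26.9 and 44.6, then 25.5 and 15.3.

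**Figure D4:**
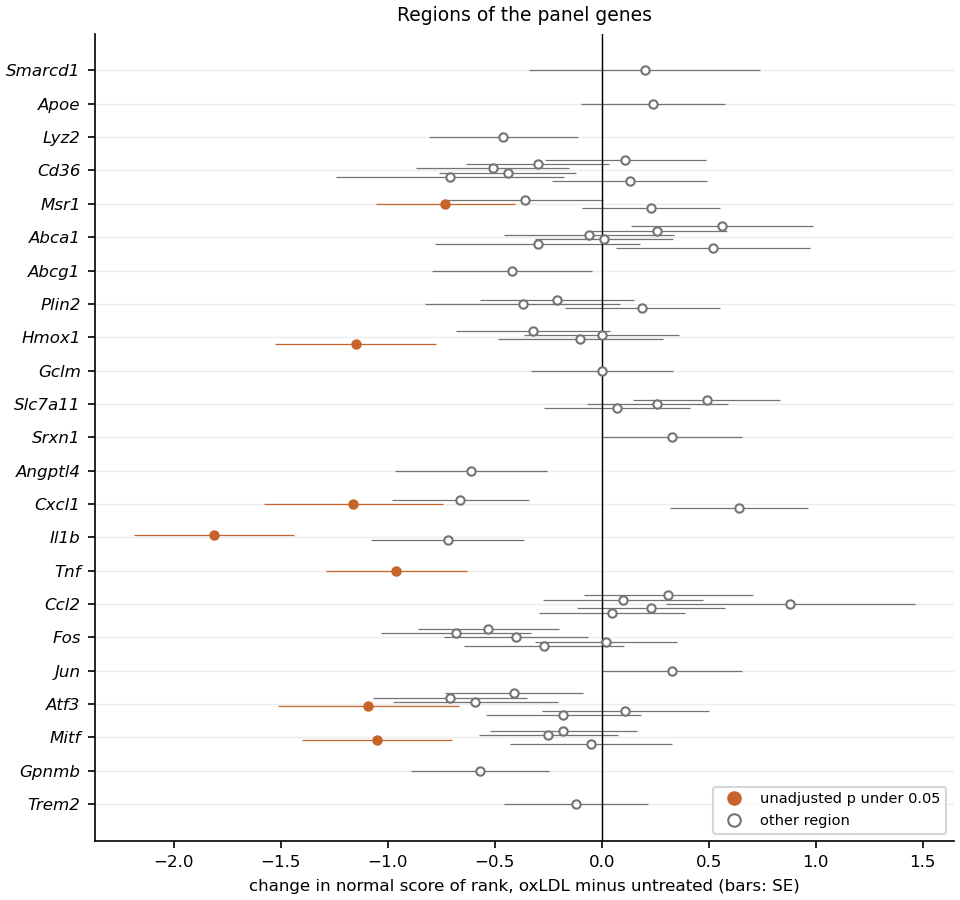
Difference in normal score of rank, oxLDL minus untreated (x, bars are SE), for 61 shared regions of 23 panel genes, with regions of unadjusted p under 0.05 filled. The 7 filled points are all below 0, the lowest at Il1b (-1.81), and none has an adjusted p under 0.625.

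Wider gene lists were then described. The 16 lists held 396 genes, of which 386 matched a RefSeq gene on an autosome, and had 20 to 68 shared regions each. None of the regions passed. The median difference was below 0 in 13 lists and above 0 in 3, against a median of 0 over all shared regions. Each list is described by its counts and not tested. At an unadjusted p under 0.05 in limma a list had 0 to 3 regions higher and 0 to 7 lower. Of all shared regions, 3.68% were higher and 3.3% lower. The lysosome list had 3 and 5 of 68, NRF2 had 3 and 4 of 60, macrophage identity 2 and 3 of 62. Modified LDL uptake had 1 and 3 of 29, foam cell and tissue repair 3 and 2 of 43, alternative activation 0 and 3 of 32. LXR had 2 and 2 of 43, AP-1 2 and 2 of 41, and cell cycle 2 and 0 of 38. SWI/SNF had 0 and 2 of 44, and PPAR 0 and 1 of 36. Interferon, HIF-1 and mitochondrial lists had 0 and 0, of 20, 44 and 28 regions.

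Sterol synthesis genes had the highest median, 0.17, with 28 of 41 regions above 0 (9141 of 18340 in all). The region over a start of Insig2 (which retains SREBP in the endoplasmic reticulum; chr1:121327411-121328497) stood at 95.9 and 92.5, then 98.9 and 98.8, and that of Cyp51 (a demethylase of cholesterol synthesis; chr5:4103956-4105064) at 78.9 and 77.6, then 92.4 and 87.9. Fasn (fatty acid synthase; chr11:120823784-120824912) went the other way at 65.7 and 46.3, then 25.9 and 28.3. At an unadjusted p under 0.05 the list had 0 regions higher and 1 lower, that of Fasn, and the adjusted p of Insig2 and Cyp51 in limma was 0.726 and 0.807. The list median was 0.02 without untreated replicate 1, 0.04 without oxLDL replicate 2, and 0.03 with the file-name mark in a fit on 8 libraries.

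Lysosome genes had a median of -0.14, with 47 of 68 regions below 0. An Atp6v0d2 region (a proton pump subunit; chr4:19918860-19919180) stood at 46.7 and 41.3, then 5.49 and 12.1, and a Tfeb region (the master regulator of lysosomal genes; chr17:47793289-47793771) at 53.7 and 55.8, then 21.9 and 7.08. Lipa (lysosomal acid lipase, which frees cholesterol from LDL esters; chr19:34519462-34520555) and Ctsz (a cathepsin; chr2:174438692-174439985) were higher, Lipa at 1.59 and 2.62, then 14.5 and 16.1, and Ctsz at 16 and 9.26, then 44.3 and 42.4. Macrophage identity genes also had a median of -0.14, with 37 of 62 below 0. Runx1, a factor of blood cell development, had regions in both directions. The one inside the gene at chr16:92823479-92824139 stood at 1.9 and 6.42, then 29.6 and 10.7, and the one at a RefSeq start (chr16:92696577-92697753) at 47.5 and 32.5, then 10.8 and 7.46.

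Modified LDL uptake genes had a median of -0.14, with 18 of 29 below 0. Beside Stab2 above, a region inside Stab1 (its paralogue; chr14:31166084-31166761) stood at 59.7 and 72.4, then 37.3 and 23.7, so the 2 stabilins differed in sign. A region 31.1 kb from Scarb1 (the HDL receptor) stood at 30.2 and 48, then 11.4 and 12.1. The LXR and efflux list had a median of -0.12 with 23 of 43 below 0. Lpcat3, a phospholipid-remodelling LXR target, had a region at 13.2 and 7.68, then 35.9 and 42.1, and regions near Pltp and Lpl, which act on plasma lipoproteins, had differences of -0.97 and -0.82. That list's median was 0.17 with the file-name mark in a fit on 8 libraries. That term rests only on the difference between the 2 oxLDL KO libraries, so the value cannot show whether the sign depended on the mark.

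Of the 59 regions of the NF-kB list, 7 were lower and 1 was higher at an unadjusted p under 0.05, where 3.3% and 3.68% of all shared regions were. The list median was -0.06, near that of all regions. By sign, 27 of the 59 were above 0 and 32 below. Ccl3, a macrophage chemokine, had the region over its start (chr11:83648579-83649948) at 88.9 and 93.1, then 62.7 and 56.9. The 1 region higher at that threshold was inside Nfkb1 at 0.401 and 4.17, then 13.5 and 12.5. The AP-1 list had a median of -0.11. A region 36.3 kb from Maf, a large Maf factor of macrophages (chr8:115742534-115743902), stood at 4.89 and 29.8, then 56.9 and 64.4, and one 9.74 kb from Fosb at 40 and 59.6, then 22.6 and 14. In the NRF2 list (median -0.04), Gstm1 and Bach1 regions had differences of 0.98 and 0.93 and a Txnrd1 region -1.19. Alternative activation genes had a median of 0.02, with Clec10a (a lectin of alternatively activated macrophages; chr11:70166288-70166895) at 52.3 and 50.4, then 7.69 and 15.6.

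The other lists had medians of -0.12 (PPAR and lipid droplet, foam cell and tissue repair), -0.06 (SWI/SNF subunits), -0.04 (interferon response), -0.02 (HIF-1 and glycolysis, cell cycle) and 0.01 (mitochondrial biogenesis). The cell cycle median was -0.02 although each of the 4 untreated-oxLDL pairs of libraries gave a median of 0.04 to 0.15. Over 11 settings the median kept its sign in the sterol synthesis (0.02 to 0.19), lysosome (-0.17 to -0.09) and macrophage identity (-0.23 to -0.02) lists. It reached 0 or crossed it in each of the other 13. These settings reuse the same 4 libraries for the oxLDL difference. In KO cells of the cohort the medians of these lists were 0.03, 0.06 and 0. In the Omni-ATAC pair, ranked by score and not by fold enrichment, the medians of all 16 lists were above 0. There the median over all shared regions was itself 0.05 and 54.3% of regions were above 0.

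Gene density moved with rank in these libraries. With regions split into 5 groups by the number of protein-coding genes within 500 kb, the median difference was 0.1 in the sparsest group (0 to 6 genes) and -0.14 in the densest (24 to 72 genes), a gap of -0.24. The pattern was strongest in untreated replicate 2, whose median deviation from a region's mean over the 4 libraries went from -0.1 in the sparsest to 0.17 in the densest group. In the 4 pairs of libraries the gap was -0.12 and -0.03 for untreated replicate 1 with oxLDL replicates 1 and 2, and -0.45 and -0.35 for untreated replicate 2. Without untreated replicate 2 the gap was -0.09 and without replicate 1 it was -0.38. Of the named regions, 5 of the 15 upward ones were in the sparsest and 1 in the densest group, and 7 of the 15 downward ones were in the densest and 1 in the sparsest, where the sparsest held 25.6% and the densest 18.8% of all shared regions. Its part in the differences of the named regions was not tested beyond ranking within these groups, after which 0 regions passed and 599 were higher and 578 lower at an unadjusted p under 0.05.

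**Figure D5:**
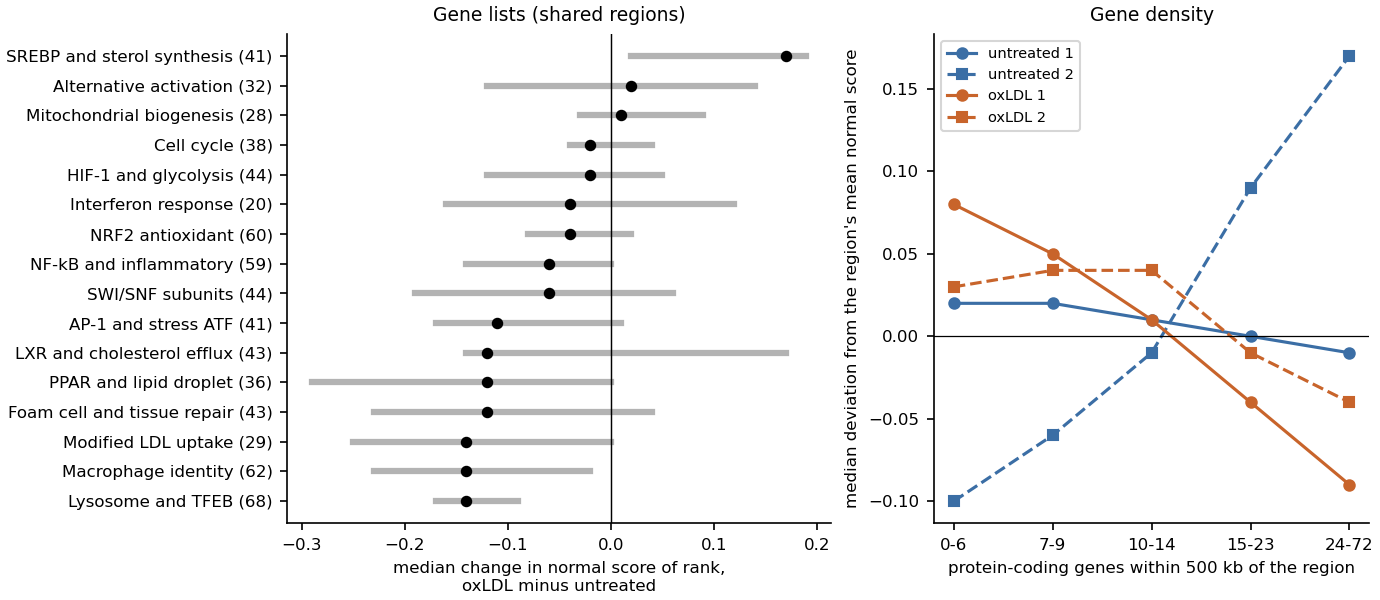
Left, median difference in normal score of rank for 16 gene lists (points, with the number of shared regions) and its range over 11 settings (grey bars); right, median deviation of each library from a region's mean over the 4 libraries, by protein-coding genes within 500 kb. Sterol synthesis is highest at 0.17, and untreated replicate 2 runs from -0.1 to 0.17 across gene density, more steeply than the other 3 libraries.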

How the data were processed

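Frozen BMDMs went to a company that made Nextera libraries and sequenced paired 150-base reads, per the labels' protocols. The submitters' processing notes name MACS2, Bowtie2 2.3.4.1, SAMtools 1.2, bedtools 2.28.0, Picard, cutadapt, Trim Galore and FastQC, with build mm10. Their roles and settings, read shifting and duplicate removal among them, are not given in the sources. The authors deposited 1 peak list per library, with a score, a fold enrichment and a -log10 of p and of q for each peak. The score equalled the floor of 10 times the deposited -log10 q, apart from 0 to 11 peaks in a list. Calls were made per sample.

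Peaks overlapping by 1 bp or more were merged over the 4 lists. Shared regions were ranked by fold enrichment within each library, converted to normal scores and tested with limma 3.58.1 in R 4.3.3, Benjamini-Hochberg adjusted over all shared regions, and the limma procedure was tested on simulated data. Library values used an exact permutation test, two-sided. Genes came from RefSeq (GRCm38.p6, 20665 autosomal protein-coding genes). A region belonged to its nearest gene within 50 kb, and the nearest gene is given with its distance where farther. RefSeq starts and promoters cover part of the genes and lack chromosome 18. Named regions were the 15 of smallest p and the 10 strongest on/off regions per direction, up to 2 members per list and direction, and 28 panel genes, of which 1 is counted but not reported here. Other steps ran in Python 3.11.15 (scipy 1.17.1, pandas 2.3.3, numpy 2.4.6, matplotlib 3.10.9). The members, gene lists and tests were chosen with earlier results of these data known. Alternatives covered the ranking column, score minimum, list length, overlap, merging, left-out libraries, a replicate block and the file-name mark.

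Motifs searched on both strands of the promoter windows were AP-1 (TGANTCA), CRE (TGACGTCA), ETS/PU.1 (GGAAGT), antioxidant response element (TGACNNNGC), E-box (CACGTG), GC box (GGGCGG), C/EBP (TTGCGCAA) and the CCAAT box. AP-1, CRE and antioxidant response elements can share bases.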

Additional observations from a re-analysis of the deposited data

Results flagged for a closer look

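The gap in the oxLDL difference between the gene-densest and gene-sparsest of 5 groups of shared regions was -0.24 in normal score in these WT cells, and the Omni-ATAC pair of WT libraries gave 0.22. It was picked out because all 4 WT pairs of libraries in the ApoE KO cohort (-0.03 to -0.45) and the single Omni-ATAC pair had opposite signs. The Omni-ATAC value came from ranks of the deposited score, and the WT values of the ApoE KO cohort from ranks of fold enrichment. The 2 cohorts were thus not compared by the same column, and the difference between them was not tested. In Baf60a KO cells of the ApoE KO cohort the 4 pairs had both signs, at -0.08, -0.04, 0.06 and 0.12.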

How the results depend on the processing

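Shared regions that passed numbered 0 in each direction under all 15 alternatives, with the smallest adjusted p between 0.235 and 0.858 and 369 to 819 higher and 387 to 936 lower regions at an unadjusted p under 0.05. The interaction also gave 0 under its 3 alternatives. All named regions with a value kept their sign in every alternative that was run on them. They were chosen by this contrast, so this is no sign of stability.

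Regions called on one side alone moved most. Those of untreated cells numbered 1068 and those of oxLDL cells 688 in lists of equal length, against 2774 and 171. Limited to peaks above the 50th percentile in both libraries they numbered 161 and 6, and with an overlap of 50% or more of the region the oxLDL-only regions numbered 307. Leaving out 1 library, which removes a condition on the call, gave 4053 to 12196 untreated-only and 252 to 2253 oxLDL-only regions. In full lists the boundary share differed by 5.04 points and the median width by 16 bp, against 0.676 points and -80 bp. Leaving out 1 library gave log2 ratios of -0.60 to -0.16 for peak number and -0.57 to -0.13 for covered sequence.

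Replicate numbers did not pair the libraries. Deviations of same-numbered libraries had a correlation of 0.0257, and a fit with a replicate block gave 0 higher and 0 lower regions, with 666 and 636 at an unadjusted p under 0.05. Distinct intervals changed nothing, since no list repeats one. The number of libraries and the unknown depth limit all of these values.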

Other observations

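Promoter windows lying whole inside a shared region numbered 6373. Of these, 60 lay in regions ranked higher with oxLDL and 156 in regions ranked lower, at an unadjusted p under 0.05 in limma. Both are smaller shares than the 3.68% higher and 3.3% lower of all 18340 shared regions. After adjustment 0 regions passed. A CCAAT box was in 18.3% of the 60 and 41.7% of the 156, against 39.7% of all 6373. The ETS/PU.1 core was in 21.7% and 32.7%, against 26.2%. The AP-1 element was in 8.33% (5 windows) and 3.85% (6 windows), against 3.4%. The antioxidant response element was in 15% (9 windows) and 8.97% (14 windows), against 13%. A GC box was in 56.7% and 70.5%, against 68.4%, and the E-box in 1.67% and 8.33%, against 9.16%. The CRE was in 1.67% and 0.641%, against 3.44%, and the C/EBP element in 0% of both, against 0.345%. Across the 6373 windows GC content and the oxLDL difference had a Spearman correlation of 0.074.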
